A study of Sus scrofa with 48 samples.

Results

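Myogenic regulatory factors and myostatin set how much skeletal muscle is made. MYOD1 and MYF5 are basic helix-loop-helix transcription factors that commit cells to the muscle lineage, and MYOG and MYF6 act later, when myoblasts fuse and fibres mature. Myostatin, the product of MSTN, is a secreted ligand of the TGF-beta family that muscle fibres release and that restrains their growth, so that animals without it are heavily muscled. All 5 genes are known from skeletal muscle, and follistatin (FST) is known to bind myostatin and keep it from its receptor.

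The members were taken by name and matched to the array through the pig RefSeq or Ensembl accession that each spot carries. Of the 5 genes, 3 had a probe by this rule and 1 probe each, namely MYOD1 (A_72_P185276, NM_001002824), MYOG (A_72_P177666, NM_001012406) and MSTN (A_72_P165466, NM_214435), out of 1862 genes that could be named by 2628 of the 43603 probes. MYF5 and MYF6 were not analysed here, because no spot carried an accession that the gene tables used here give them. In the RefSeq annotation of Sscrofa11.1 these 2 genes are direct neighbours, MYOD1 lies between KCNC1 and OTOG, MYOG lies between PPFIA4 and ADORA1, and MSTN overlaps C15H2orf88. A probe sequence that would place each probe within its gene was not used here.

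The samples were gluteus medius (GM, a hip muscle), liver and kidney of 16 Swiss Large White pigs of the F2 generation, 1 one-colour Agilent porcine array per pig and tissue and 48 arrays in all. F2 C pigs descended through their sires from F0 boars on a standard diet, and F2 E pigs from F0 boars whose diet held extra methionine, choline, betaine, vitamin B6, vitamin B12 and folate from 1 to 10 months of age. Each line had 8 pigs, 4 barrows (castrated males) and 4 females, the F1 boars and the F2 pigs of both lines ate standard diets, and the F2 pigs were slaughtered at market weight. The labels do not give the litters or sires of the 16 pigs, so the tests treat pigs as independent, and descent and founder diet cannot be told apart. In bulk tissue, fewer cells of a type and less RNA per cell cannot be told apart.

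Over the arrays the median spot signal was between 48 and 240.5, and the number of spots well above background was between 18948 and 36804. The local background of the GM arrays was 26 to 28 in F2 E and 14 to 24 in F2 C, without overlap. In GM and kidney each slide of 4 arrays held pigs of 1 line, so slide and line cannot be told apart in these tissues. The tissue labels held by marker genes: all 12 probes of muscle fibre markers separated the 16 GM arrays from every liver and kidney array. The mean level of hepatocyte markers was 16.84 to 17.73 in liver, and at most 9.81 in GM and 11.51 in kidney. That of kidney tubule markers was 12.21 to 13.43 in kidney, and at most 6.31 in GM and 6.53 in liver. Of 6 markers of satellite cells, the muscle stem cells in which the myogenic factors act, 4 had a probe. PAX7 and CDH15 were not among them. The mean level of the 4 over the arrays was 7.28 to 7.99 in GM, 7.74 to 8.84 in kidney and 7.96 to 8.77 in liver. The 4 genes did not share this order. SDC4 was lower in GM (mean 8.05) than in liver (10.81) and kidney (10.97), and MET was slightly lower (8.15, 8.56 and 8.39). CXCR4 was higher in GM (8.60, 8.16 and 8.13). CALCR was dim, well above background on 1 of 16 GM arrays.

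MYOD1 and MSTN had their highest signals in muscle, whereas the probe of MYOG was bright in every tissue and brightest in kidney. All 3 probes were well above background on 16 of 16 GM arrays, a flag of the scanner software for signal above the local background. Levels across tissues are log2 signals after quantile normalization over all 48 arrays, and tissues were compared in limma with the pig as a random block and Benjamini-Hochberg adjustment over 34501 probes. GM differed from liver in all 3 member probes, against 70.6% of all probes tested, and from kidney in all 3, against 75.1%. Liver differed from kidney in 2 of 3, against 70% of all probes, so that a difference between tissues is common on this array and its size says more than its call.

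**Figure D1:**
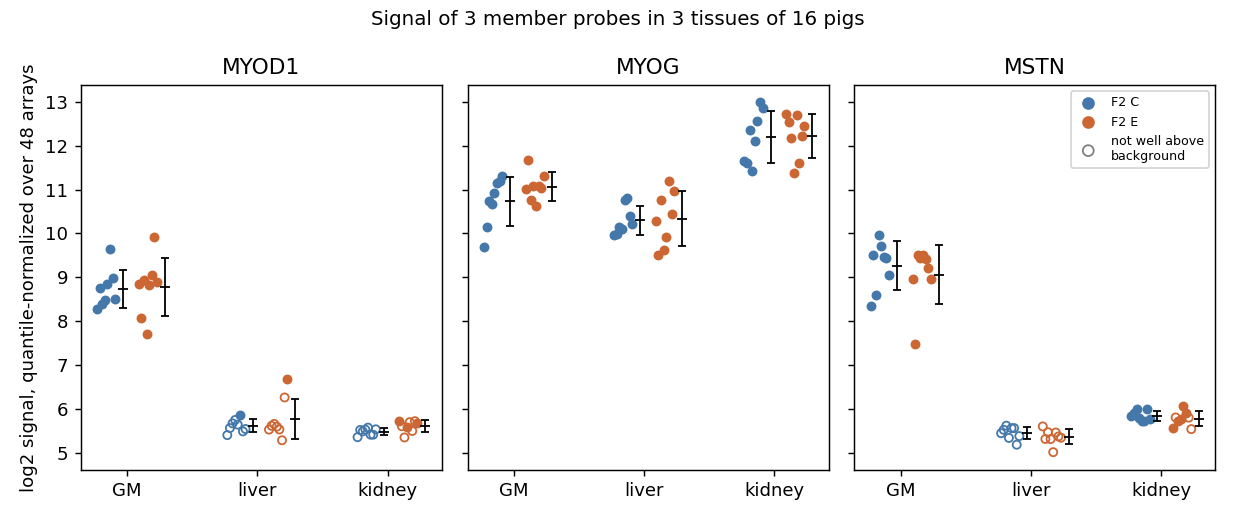
Log2 signal, quantile-normalized over 48 arrays (y axis), of the MYOD1, MYOG and MSTN probes in GM, liver and kidney (x axis), 1 point per pig, F2 C in blue and F2 E in orange, with the mean ± SD of 8 pigs beside each group and open circles where the spot was not well above background. MYOD1 and MSTN stood high in GM and near the floor elsewhere, while MYOG stood highest in kidney.

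MYOD1, the determination factor, stood at 8.76 ± 0.54 (log2 signal, SD, n = 16) in GM, with a lowest pig at 7.71, a median of 8.84 and a highest pig at 9.91. In liver it was 5.69 ± 0.34, between 5.29 and 6.69, and well above background on 2 of 16 arrays. In kidney it was 5.54 ± 0.12, between 5.35 and 5.73, and well above background on 3 of 16. Every GM array lay above every liver and kidney array. The difference from liver was 3.07 on the log2 scale (SE 0.132, 8.38-fold, limma adjusted p = 2.6e-26) and from kidney 3.22 (SE 0.132, 9.29-fold, adjusted p = 3.9e-27), in the same direction in 16 of 16 pigs. The liver and kidney spots were mostly not above background, so the fold values rest on dim signals in these tissues. Liver and kidney differed by 0.15 (95% interval -0.12 to 0.42, adjusted p = 0.315), and this was called with quantile normalization within each tissue (0.45, adjusted p = 0.0012) and with the median signal scaled to the 75th percentile (0.90, adjusted p = 0.00025).

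MSTN, the growth inhibitor, stood at 9.16 ± 0.61 (n = 16) in GM, with a lowest pig at 7.49, a median of 9.43 and a highest pig at 9.97. In liver it was 5.41 ± 0.16, between 5.02 and 5.62, and not well above background on any of 16 arrays, and in kidney it was 5.81 ± 0.14, between 5.54 and 6.07, and well above background on 13 of 16. GM again stood clear of the other tissues on every array. Against liver MSTN was at least 11.1-fold higher in GM (measured log2 means 9.16 and 5.41, limma adjusted p = 2.4e-30), a bound that holds for this normalization and was set by the lowest signal that counted as well above background on each liver array. Against kidney the difference was 3.35 on the log2 scale (SE 0.13, 10.2-fold, adjusted p = 3.2e-28). Liver against kidney was called in limma (log2 difference -0.40, adjusted p = 0.0056), at signals between 27 and 100 before normalization against local backgrounds of 17 to 32. That liver call did not hold when background was corrected by normexp (difference -0.11). Nor did it hold with quantile normalization within each tissue (-0.17, limma adjusted p = 0.227). With the median signal scaled to the 75th percentile the difference was 0.33 (adjusted p = 0.124). With the software's background-corrected signal it was -1.46 (adjusted p = 2.8e-08).

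MYOG, the differentiation factor, had its highest signal in kidney, at 12.21 ± 0.53 (n = 16), with a lowest pig at 11.38, a median of 12.29 and a highest pig at 12.99. In GM it was 10.90 ± 0.47, between 9.68 and 11.67 (median 11.02), and in liver 10.32 ± 0.48, between 9.51 and 11.19 (median 10.25). The spot was well above background on all 48 arrays and was marked as an outlier on none. Before any normalization the kidney arrays had a median signal of 6488 for this spot, against 1014 for GM and 1039.5 for liver, over local backgrounds of 15 to 39. Kidney was 2.48-fold higher than GM (log2 difference GM minus kidney -1.31, SE 0.168, limma adjusted p = 1.3e-09) and 3.71-fold higher than liver (liver minus kidney -1.89, SE 0.168, adjusted p = 3.6e-14), each in 16 of 16 pigs, and no kidney array overlapped the liver arrays. These levels go against the label of a muscle gene, so the values are those of the probe that carries the MYOG accession, and whether its signal came from myogenin mRNA was not tested.

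GM and liver were neighbours in the order of MYOG levels and their order was not stable. Normalized over 48 arrays, GM lay above liver by 0.58 (SE 0.168, 1.49-fold, limma adjusted p = 0.0020), in 14 of 16 pigs and with overlapping groups. Normalized within each tissue, GM lay below liver by 0.30 (log2 difference -0.30, adjusted p = 0.0921), a scaling that moved the median of all probes by -0.69 and left MYOG 0.39 above that median. For MYOD1 and MSTN every scaling kept GM highest, but the size of the difference moved with background treatment. The MYOD1 difference from liver was between 1.83, with normexp, and 5.55, with the software's background-corrected signal, and the MSTN difference was between 2.27 and 6.41 from liver and between 2.16 and 4.94 from kidney. The lower values of each came with normexp. The measured MSTN difference from liver was below the bound given above with normexp and with quantile normalization within each tissue (2.52). For MYOG, the difference GM minus kidney was between -2.71, with quantile normalization within each tissue, and -1.14.

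**Figure D2:**
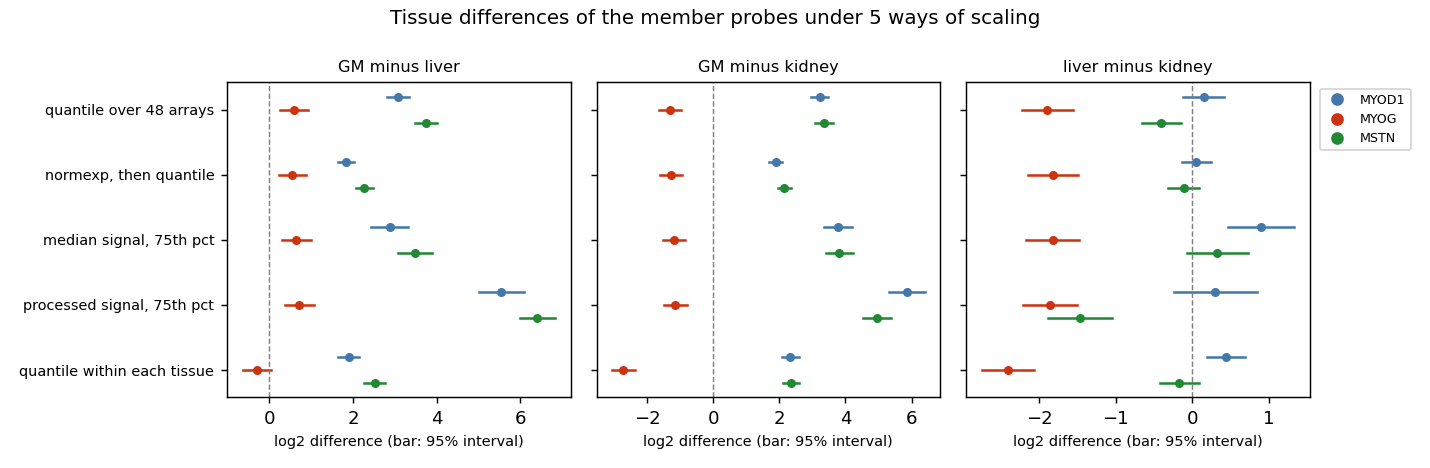
Log2 difference between tissues (x axis, bars are 95% intervals of the limma fit) of the MYOD1, MYOG and MSTN probes under 5 ways of scaling the arrays (y axis). MYOG was below 0 in both comparisons with kidney throughout and changed sign only for GM minus liver, from 0.58 to -0.30 with quantile normalization within each tissue.

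None of the 3 member probes was called between the lines in any tissue in which it was measurable. In GM the limma fit called 0 of 3 member probes at an adjusted p below 0.05, against 0.769% of all 25625 probes tested, and 0 of 3 also had an unadjusted p below 0.05 or were called by the methods' t-test, with variances pooled or not. In liver only MYOG was measurable by the presence criterion, which asked 50% or more of the arrays of 1 line to have a signal above 25 and to stand well above background. Of this 1 probe 0 were called, against 0.0937% of all probes. In kidney MYOG and MSTN were measurable and 0 of 2 were called, against 0.0119%. Levels between lines are log2 signals after quantile normalization over the 16 arrays of a tissue, so they sit on another scale than the levels across tissues.

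MYOD1 in GM was 7.81 ± 0.43 (SD, n = 8) in F2 C, with a lowest pig at 7.38, a median of 7.71 and a highest pig at 8.70. In F2 E it was 7.86 ± 0.62 (n = 8), from 6.87 through a median of 7.94 to 8.95. The F2 E range enclosed the F2 C range, and the log2 ratio was 0.05 (95% interval -0.45 to 0.56, limma adjusted p = 0.934, exact two-sided permutation p = 0.841). The interval of this fit, which leaves slide out, spans a change of the MYOD1 signal between 0.731-fold and 1.48-fold. With slide as a random block the limma adjusted p was 0.986.

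MYOG in GM was 9.82 ± 0.60 (n = 8) in F2 C, with a lowest pig at 8.73, a median of 9.93 and a highest pig at 10.45, and 10.19 ± 0.35 (n = 8) in F2 E, from 9.69 through 10.17 to 10.85. The 2 lowest pigs were both F2 C and the highest was F2 E, and the groups overlapped between 9.69 and 10.45. The highest value was that of F2 E replicate 2, on a dim array with a median spot signal of 48. Before normalization its MYOG spot read 806, below the F2 E median of 1158.5. The log2 ratio was 0.36 (95% interval -0.11 to 0.83, adjusted p = 0.437, exact permutation p = 0.170), and 6 of 8 F2 E pigs lay above the F2 C median. Without F2 E replicate 2 the ratio was 0.27, and with each array left out in turn it ran from 0.20 to 0.45. In liver the same probe was 10.29 ± 0.34 in F2 C and 10.32 ± 0.63 in F2 E, a ratio of 0.04 (95% interval -0.45 to 0.52, adjusted p = 0.980). In kidney it was 12.70 ± 0.57 and 12.73 ± 0.48, a ratio of 0.03 (95% interval -0.49 to 0.55, adjusted p = 1.00).

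MSTN in GM was 8.31 ± 0.54 (n = 8) in F2 C, with a lowest pig at 7.44, a median of 8.50 and a highest pig at 9.02, and 8.13 ± 0.63 (n = 8) in F2 E, from 6.67 through 8.36 to 8.54. A single F2 E female, replicate 2, held the lowest value, and the next F2 E pig was at 8.02. The log2 ratio was -0.19 (95% interval -0.74 to 0.36, adjusted p = 0.757, exact permutation p = 0.556), and without that pig it was 0.02. In kidney MSTN was 5.91 ± 0.16 in F2 C and 5.82 ± 0.24 in F2 E, a ratio of -0.10 (95% interval -0.34 to 0.14, adjusted p = 1.00), at a dim signal that was well above background on 8 of 8 and 5 of 8 arrays. No liver array had MSTN well above background, and 1 of 8 per line had MYOD1, so neither has a ratio there. MYOD1 in kidney was well above background on 0 of 8 F2 C and 3 of 8 F2 E arrays and was likewise not compared.

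**Figure D3:**
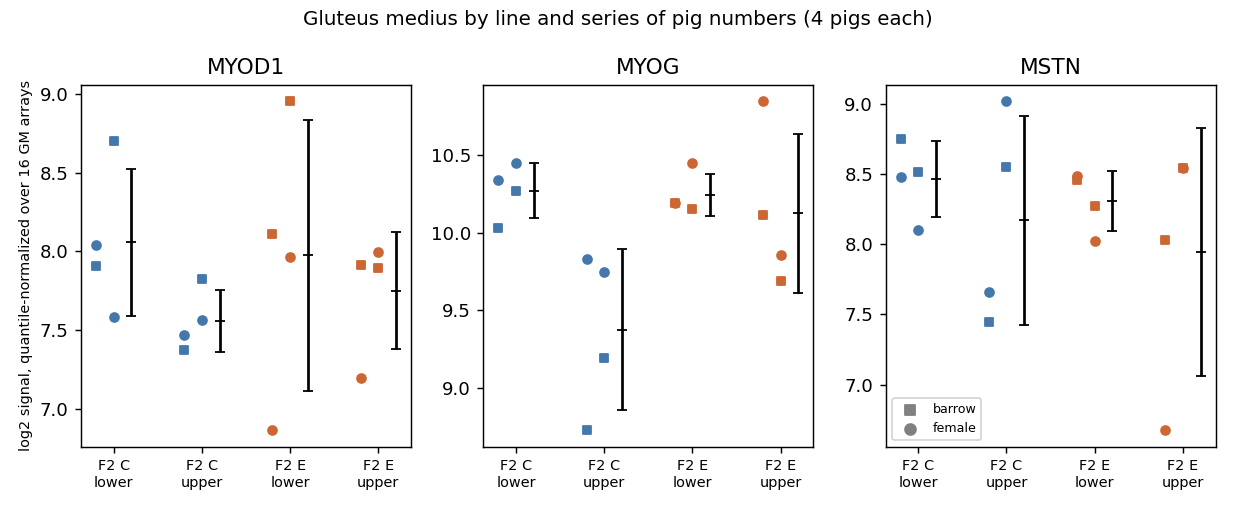
Log2 signal, quantile-normalized over the 16 GM arrays (y axis), of MYOD1, MYOG and MSTN by line and by lower or upper series of pig numbers (x axis), 1 point per pig with squares for barrows and circles for females, and the mean ± SD of 4 pigs beside each set. The 4 sets overlapped for MYOD1 and MSTN, and for MYOG the F2 C pigs of the upper series, from 8.73 to 9.83, lay below both lower sets.

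Whether the difference between lines depended on tissue was tested over all 48 arrays. The MYOG ratio in GM exceeded that in liver by 0.30 (95% interval -0.37 to 0.98, limma adjusted p = 0.937) and that in kidney by 0.31 (95% interval -0.37 to 0.98, adjusted p = 1.00). No member probe was called in either contrast, against 0.122% of all probes for GM against liver and 0.0464% for GM against kidney, and the smallest unadjusted p among the members was 0.361.

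The numbers in the pigs' labels fall into a lower and an upper series with 4 pigs of each line, and the labels do not say what the series are. MYOG was the member whose line difference varied most between them. In GM the F2 C pigs were at 9.38 ± 0.52 (SD, n = 4) in the upper series and at 10.27 ± 0.18 in the lower, while F2 E pigs were at 10.13 ± 0.51 and 10.25 ± 0.14. The log2 ratio was thus 0.75 within the upper series and -0.03 within the lower. In kidney F2 C pigs were at 12.28 ± 0.40 in the upper and 13.11 ± 0.38 in the lower series, and F2 E pigs were at 12.97 ± 0.21 and 12.49 ± 0.58, a ratio of 0.68 in the upper and -0.62 in the lower series.

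The difference of these MYOG ratios, upper minus lower, was 0.78 in GM (95% interval 0.04 to 1.51, limma adjusted p = 0.184), 1.31 in kidney (95% interval 0.48 to 2.13, adjusted p = 0.0836) and -0.09 in liver (adjusted p = 0.991). It passed the adjusted threshold in no tissue, nor did MYOD1 or MSTN in GM (adjusted p = 0.762 and 0.956) or MSTN in kidney (adjusted p = 0.312), whereas 7% of the probes tested passed in GM, 3.5% in kidney and 0.104% in liver. The test was chosen after the values had been seen. In GM and kidney each of the 4 sets lay on a slide of its own. On the kidney slide of the F2 E pigs of the lower series the MYOG signal before normalization was 1362 to 4412, against 4713 to 11726 on the other kidney slides. The lowest readings, 1362 and 2077 in replicates 7 and 5, came from dim arrays with a median spot signal of 48. After normalization these 2 pigs stood at 12.73 and 13.18. Series, slide and line cannot be told apart in the differences between these sets.

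Barrows and females were compared because sex is the other label that divides the pigs. MYOD1 in GM was 8.09 ± 0.51 (SD, n = 8) in barrows and 7.59 ± 0.41 in females, from 7.38 to 8.95 and from 6.87 to 8.04. With line in the fit the log2 difference was 0.50 (95% interval 0.04 to 0.96, limma unadjusted p = 0.0346, adjusted p = 0.998, exact permutation p = 0.0479), so that it failed the correction. MYOG in barrows was 9.80 ± 0.56 against 10.21 ± 0.38 in females (difference -0.42, adjusted p = 0.998), and MSTN was 8.32 ± 0.41 against 8.12 ± 0.71 (difference 0.20, adjusted p = 0.998). No member was called by sex, against 0.121% of all probes. No member was called for a line difference that depends on sex, against 0% of all probes (0 called in limma and 886 at an unadjusted p below 0.05), with the smallest unadjusted p among the members at 0.346.

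The pathway around myostatin was represented by 9 of 31 listed genes with 15 probes, all present in GM. Between lines 0 of the 15 probes were called in limma, 4 had an unadjusted p below 0.05 (16.1% of all GM probes tested did), and 4 lay higher and 11 lower in F2 E. The median log2 ratio was -0.10, against -0.02 over all probes tested. The genes with the smallest p were IGF1, a growth factor whose muscle-building signal myostatin opposes, FST, and INHBA, which encodes a subunit of activin A, a ligand that shares receptors with myostatin.

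FST had 2 probes. With the brighter one, F2 C pigs were at 10.54 ± 0.50 (SD, n = 8), from 9.46 through a median of 10.67 to 11.02, and F2 E pigs at 11.54 ± 0.69, from 10.44 through 11.58 to 12.30. The groups overlapped, 7 of 8 F2 E pigs lay above the F2 C median, and the log2 ratio was 1.00 (SE 0.271, limma adjusted p = 0.0874). With slide as a random block the adjusted p was 0.59, and without F2 E replicate 7 it was 0.0409 (log2 ratio 1.16). The other probe gave 0.49 (SE 0.218, adjusted p = 0.276). Within the upper series the ratios of the 2 probes were 1.55 (limma adjusted p = 0.0013) and 0.92 (adjusted p = 0.0486), where 1090 of 25583 probes were called. Within the lower they were 0.46 (adjusted p = 0.520) and 0.06 (adjusted p = 0.934). The difference between series was not called (adjusted p = 0.102 and 0.161). Each line lay on 1 slide within a series, so slide and line cannot be told apart in these ratios.

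IGF1 was 8.22 ± 0.11 (n = 8) in F2 C, from 8.11 to 8.44, and 7.71 ± 0.34 in F2 E, from 7.05 to 8.24. In F2 E 7 of 8 pigs lay at or below the F2 C median, and the log2 ratio was -0.51 (SE 0.13, limma adjusted p = 0.0702), with an adjusted p of 0.636 with slide as a random block and 0.0332 without F2 E replicate 8 (-0.59). INHBA was 10.30 ± 0.30 in F2 C and 10.70 ± 0.16 in F2 E, and all 8 F2 E pigs lay above the F2 C median of 10.38 (log2 ratio 0.40, SE 0.125, adjusted p = 0.131, and 0.735 with slide as a random block). With the scanner software's own background subtraction in place of the median pixel, and arrays set level at their 75th percentile, the ratios were 0.97 for the brighter FST probe, -0.59 for IGF1 and 0.45 for INHBA (adjusted p = 0.104, 0.0872 and 0.0802).

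Partners and regulators of the myogenic factors had probes for 4 of 30 listed genes, 8 probes in all, and 0 were called between lines in GM, with 2 at an unadjusted p below 0.05, against 16.1% of all probes, and a median log2 ratio of 0.11. MEF2C and MEF2A, transcription factors that bind muscle promoters together with the myogenic factors, disagreed among their own probes. MEF2C had ratios of -0.26, 0.49 and 0.22 over 3 probes (adjusted p = 0.278, 0.326 and 0.708), and MEF2A 0.38 and -0.33 (adjusted p = 0.296 and 0.319). ID2, an inhibitor that binds the partners of the myogenic factors, had 0.31 and -0.04 (adjusted p = 0.53 and 0.92). Within the upper series 1 probe each of ID2 (0.99, adjusted p = 0.0243) and MEF2A (0.91, adjusted p = 0.0403) was called, beside both FST probes, where 1090 of 25583 probes were called in all.

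Targets in differentiating muscle had probes for 13 of 32 listed genes, 15 probes in all. Between lines 0 were called, 3 had an unadjusted p below 0.05, against 16.1% of all probes, 8 lay higher and 7 lower in F2 E, and the median log2 ratio was 0.01. CAPN3, a muscle protease, had the smallest p (log2 ratio -0.30, SE 0.0995, adjusted p = 0.147), with all 8 F2 E pigs below the F2 C median. DES, the intermediate filament desmin, had -0.39 (adjusted p = 0.246) with one probe and 0.08 and -0.02 with the others, and MYBPH, a myosin-binding protein, had 1.07 (adjusted p = 0.288) with F2 C pigs spread from 9.34 to 14.34.

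**Figure D4:**
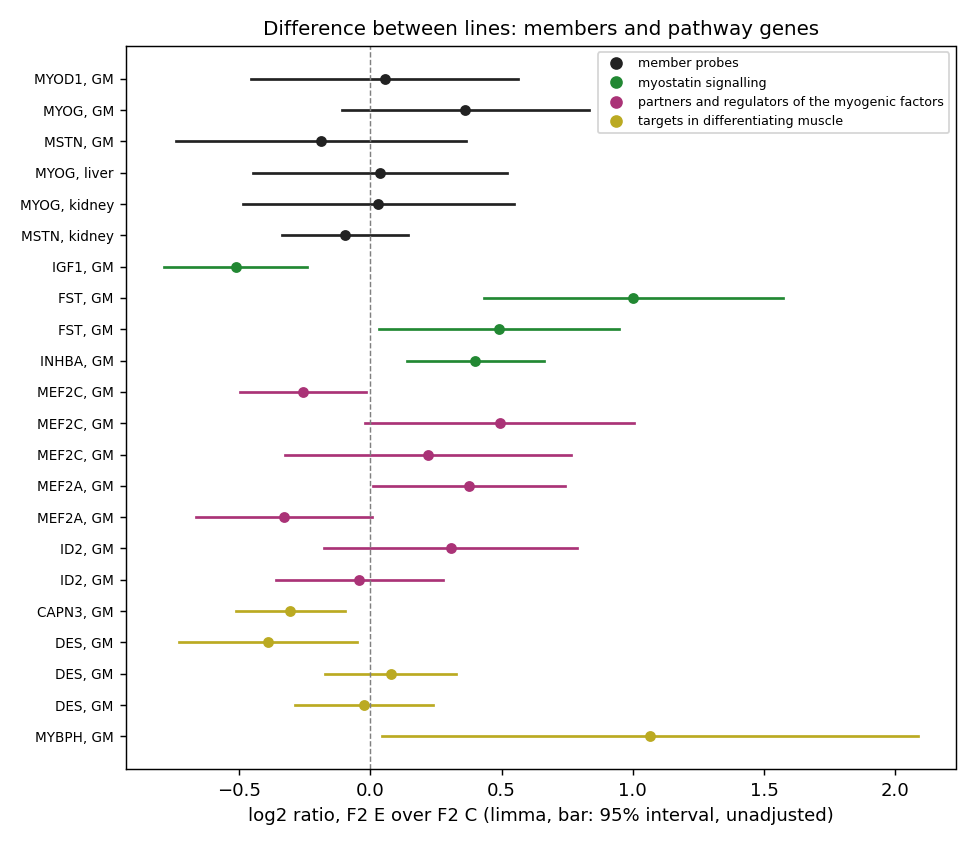
Log2 ratio between lines, positive where F2 E is higher (x axis, points with unadjusted 95% intervals of the limma fit) of the member probes in the tissues where they were measurable and, in GM, of the 3 genes of each pathway list with the smallest unadjusted p (y axis, 1 line per probe). The member intervals all span 0, and the brighter FST probe had the ratio of 1.00.

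Across tissues all 15 probes of the target list were higher in GM than in liver and all 15 higher than in kidney, against 35% and 35.2% of all probes. The medians of the log2 differences were 9.41 and 9.02, against -0.01 and -0.05 over all probes tested. TNNC2, a fast troponin not well above background on any liver array, was higher in GM than in liver by at least 13.39 on the log2 scale. TNNT3 and CKM, another fast troponin and the muscle creatine kinase, differed from liver by 13.17 and 13.11, with liver spots well above background on 2 of 16 arrays each. For the partners, 6 of 8 probes were higher in GM and 2 lower in each comparison, the lower ones both from ID2 (-2.73 and -3.05 against liver). The MEF2C probes were higher in GM than in liver by 4.46 to 5.54, HEY1, a Notch target, by 1.96, and the MEF2A probes by 1.79 and 1.87.

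In the myostatin list 12 of 15 probes were higher in GM than in liver and 1 lower, and 14 were higher and 1 lower than in kidney. FBXO32, a ubiquitin ligase of muscle atrophy, differed most from liver (4.57 and 4.41 with 2 probes), followed by DCN, a matrix proteoglycan that binds myostatin (3.27 to 3.99 with 3 probes), and SMAD4, the shared signal transducer of the family (0.97 to 1.51 with 3 probes). IGF1 was lower in GM than in liver (-0.79, limma adjusted p = 6.1e-06). INHBA was lower in GM than in kidney (-1.32, adjusted p = 1.9e-17), as was the MYOG probe.

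**Figure D5:**
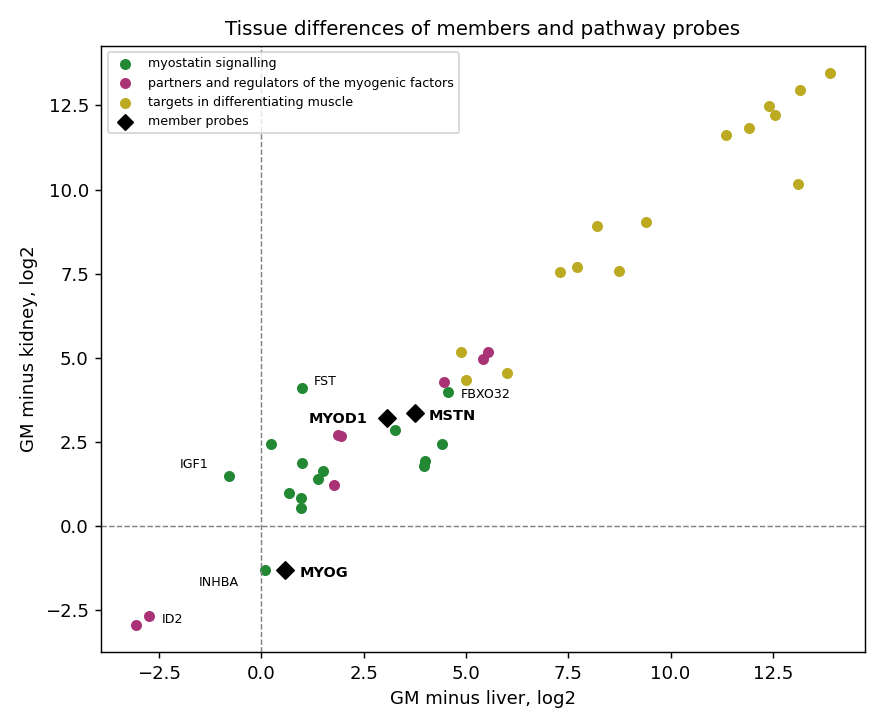
Log2 difference GM minus liver (x axis) against GM minus kidney (y axis) for each probe of the 3 pathway lists (circles, coloured by list) and the member probes (black diamonds). MYOD1 and MSTN lay at 3.07 and 3.75 on the x axis among probes higher in GM than in both other tissues, and MYOG lay at 0.58 and -1.31, next to INHBA.

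Over the 16 GM arrays, with line means taken out, the Pearson correlation was 0.096 between MYOD1 and MYOG, 0.375 between MYOD1 and MSTN and -0.112 between MYOG and MSTN (Spearman 0.077, 0.241 and -0.350). Without F2 E replicate 2, whose MSTN value stood apart, these became 0.256, 0.205 and 0.213, so that the sign for MYOG and MSTN turned with 1 array. Within lines MYOG and MSTN had 0.389 in F2 C and -0.860 in F2 E (8 pigs each), and -0.662 in F2 E without that array. Among 2020 named probes, those most like MYOD1 were EPHX1 (r = 0.864), UCHL3 (0.819) and RXRG (0.80). Those most like MYOG were SELP (r = 0.744), NAB2 (0.728) and TGFB1 (0.71). Those most like MSTN were STAT5A (r = 0.881), MDM2 (0.861) and ENO3 (0.859), whose Spearman values were 0.868, 0.679 and 0.545. These values are the highest of 2020 over arrays that share slides and are given as a description.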

How the data were processed

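RNA of GM, liver and kidney of 16 F2 pigs was hybridised to 48 one-colour arrays. The authors scanned the arrays and deposited for each spot the intensity that Agilent Feature Extraction (10.5.1.1 per the file headers, another version in the methods) gave, with no normalization between arrays. For each tissue the authors deposited a further table of their own log2 values, ratios, p-values and false discovery rates, which were not used. The median pixel intensity was quantile-normalized, per tissue for comparisons of lines and over 48 arrays for tissues, and put on the log2 scale. Control and marked spots were left out after normalization. A probe was present where 50% or more of the arrays of 1 line had a signal above 25 and the flag for well above background. Lines, sexes and tissues were compared with limma 3.58.1 in R 4.3.3 (tested on simulated data), with Benjamini-Hochberg adjustment and calls at 0.05, and members also by exact permutation of 8 against 8 pigs (smallest p 0.000155). Tissues were compared with the pig as a random block (correlation 0.0301), since pig numbers in the titles link the tissues. Replicate numbers of the lines mark different pigs and pair nothing.

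The genes named were every member probe, the 3 genes with the smallest p of each pathway list with 0 calls, up to 3 genes per list with the largest difference between GM and liver, and the 3 named probes most correlated with each member. The members and lists were chosen with earlier results of these data known. Alternatives covered the t-test, background, scaling, presence, marked spots, sex, slide, number series and each array left out. Precision is limited by the number of arrays.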

Additional observations from a re-analysis of the deposited data

Results flagged for a closer look

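Of 18 groups of 8 arrays, defined by gene, tissue and line, 1 held an array that stood apart from the rest by Dixon's test, which chance alone does in about 1 in 20 groups. It was MSTN in GM of F2 E replicate 2, a female, with a log2 signal of 6.67 against 8.02 for the next F2 E pig. Before normalization the spot read 64 over a local background of 27, and the other F2 E spots read 243 to 442. The array had the lowest median spot signal of the GM arrays, 48, and 21592 spots well above background. Without it, the MSTN difference between GM and liver was 3.87 in place of 3.75, and between GM and kidney 3.46 in place of 3.35.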

How the results depend on the processing

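The 3 member probes were called between lines in no tissue and under no alternative run. With all arrays their log2 ratios stayed between 0.05 and 0.11 for MYOD1, 0.33 and 0.40 for MYOG and -0.20 and -0.14 for MSTN in GM outside the number series and the arrays left out. Some ratios changed sign, among them that of MYOG in GM (0.36 with all arrays), and the cause was not tested. Within the lower series MYOD1 in GM gave -0.083, MYOG in GM -0.026, MYOG in kidney -0.62 and MSTN in kidney 0.11. Within the upper series MYOG in liver gave -0.0052. Scaling the median signal to the 75th percentile gave -0.016 for MYOG in liver, -0.017 for MYOG in kidney and 0.15 for MSTN in kidney. With each array left out, the ratio ran from -0.10 to 0.20 for MYOD1, from 0.20 to 0.45 for MYOG and from -0.31 to 0.020 for MSTN in GM, from -0.086 to 0.16 for MYOG in liver and from -0.076 to 0.15 for MYOG in kidney. The sex difference of MSTN then ran from -0.011 to 0.35, and the line by sex term from -0.040 to 0.48 for MYOG and from -0.024 to 0.61 for MSTN. Of the pathway probes 0 were called, but 4 within the upper series, and 0 to 1 with each array left out, 1 without F2 E replicate 7 (FST) and 1 without F2 E replicate 8 (IGF1).

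The replicate numbers of the lines mark different pigs and were not taken as pairs. Same-numbered pigs correlated above 0.1 in 2 of 8 pairs in GM, 3 of 8 in kidney and 6 of 8 in liver (highest 0.585). What the liver correlations reflect was not tested. With the replicate block 0 member probes were called in any tissue. Between tissues, GM minus liver of MYOG turned to -0.30 with quantile normalization within each tissue. With the 75th percentile of the median signal, which moved the median of all probes by 0.25, 0.60 and 0.38 in the 3 comparisons, liver minus kidney of MSTN turned to 0.33. Normexp left 1 of the 2 calls between liver and kidney. The dim signals of MYOD1 and MSTN in liver and kidney limit what can be said of their order there.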

Other observations

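The tissue pattern of the MYOG probe, highest in kidney, was followed over the 48 arrays most closely by EXOSC1 (r = 0.926), HMGB1 (0.903), USP7 (0.874), GATA3 (0.868) and RPS12 (0.861), out of 2267 named probes. EXOSC1 encodes a subunit of the RNA exosome, HMGB1 a chromatin protein, USP7 a deubiquitinase, GATA3 a transcription factor known from the distal kidney tubule and RPS12 a ribosomal protein. EXOSC1, HMGB1, USP7, GATA3 and RPS12 were looked up after the MYOG levels had been seen. Their correlation with the MYOG probe mostly reflects the 3 tissue means and is a description without a test.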
